A study of Mus musculus with 4 samples.

Results

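The 10 alveolar macrophage genes Chil3, Lyz2, Ear1, Ear2, Marco, Siglecf, Car4, Krt79, Pparg and Fabp1 were taken by gene name from a table of 54532 genes. Each symbol matched 1 row, and all 10 genes passed the filter of at least 10 counts in at least 1 library, among 16367 genes tested. They were read in CD11b+Ly6g+ MDSCs (myeloid-derived suppressor cells) sorted from the lungs of C57BL/6 mice, 6 to 8 weeks old, bearing a pre-metastatic niche (PMN). Every mouse, the controls included, received MCM (medium conditioned by B16F10 mouse melanoma cells) intraperitoneally for 10 days at 300 μl, and B16F10 cells in the tail vein on day 7. Lungs were collected on day 10. The Ctrl mice had no peptide, and the other mice were given TP5, sFD17 or FR17 under the skin, starting on day 3, at a daily 40 μM/kg. TP5 is the free pentapeptide thymopentin. FR17 carries TP5 on a self-assembling peptide through a linker that the protease MMP2 cuts, and in sFD17 the TP5 part is replaced by its scrambled sequence. Each group is 1 library, for which 10 to 12 mice were pooled, so no difference has a replicate check and no p-value is given.

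Alveolar macrophages live on the air side of the alveolus, where they clear surfactant lipid, dust and microbes. GM-CSF from the epithelium and TGF-β induce in them the nuclear receptor PPARγ, which switches on lipid handling, and mature cells carry SiglecF, CD11c and MARCO. They are known to carry little CD11b and no Ly6G, the pair of proteins on which these cells were sorted. Several of the genes are shared with other cells: neutrophils and monocytes make Lyz2, developing neutrophils and monocytes make Chil3, and eosinophils carry SiglecF and Ear ribonucleases. In pooled RNA, fewer cells of a type and less RNA per cell cannot be told apart.

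The libraries held 15543071 to 19638228 counts. Levels are given as raw counts, as CPM (counts scaled to library size and TMM factor), and, for comparison between genes, as RPKM (scaled CPM per kilobase of the deposited gene length). Log2 fold changes come from log2 CPM with a prior count of 2, and a gene is called past 2-fold at a log2 fold change of 1 or more in size. Ratios carry the 95% interval of the pair of counts, which covers counting error only. The sorted cells expressed neutrophil genes: S100a8, a calcium-binding protein of neutrophils, had 94860 to 117996 counts per library, Itgam (CD11b) 5711 to 6924 and Ly6g 1234 to 2081. Of 25 further alveolar macrophage genes, 24 passed the filter and 1, Ear10, was at 0 counts in Ctrl, and alveolar macrophage transcripts were detected in all 4 libraries.

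All 10 genes were highest in the FR17 library and lowest in the sFD17 library after scaling, an order that 21.9% of all genes tested also had. The full order of FR17, Ctrl, TP5 and sFD17 from high to low held for 8 of the 10 and for 10.8% of all genes. The exceptions were Ear2 and Pparg, which stood above Ctrl in TP5. Chil3 and Lyz2 follow this order only in name, since their TP5 to Ctrl ratios were 0.991 (0.979 to 1.00) and 0.998 (0.990 to 1.01). So does Siglecf, with ratios of 1.02 (0.935 to 1.11) for FR17 to Ctrl and 0.917 (0.805 to 1.04) for sFD17 to TP5. The TP5 to Ctrl ratio of Pparg, 1.05 (0.938 to 1.18), was also within counting error. Together the 10 genes took 0.934% of all counts in Ctrl, 0.960% in TP5, 0.474% in sFD17 and 1.42% in FR17. Most of these counts belong to Lyz2 and Chil3. The other 8 genes took 0.0491% in Ctrl (95% exact binomial interval 0.0481 to 0.0502), 0.0469% in TP5 (0.0459 to 0.0480), 0.0176% in sFD17 (0.0169 to 0.0182) and 0.0795% in FR17 (0.0782 to 0.0807). Ear2 held 4183 of the 8417 counts of these 8 genes in Ctrl and 5254 of 8059 in TP5, so the TP5 share rests largely on this gene.

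**Figure D1:**
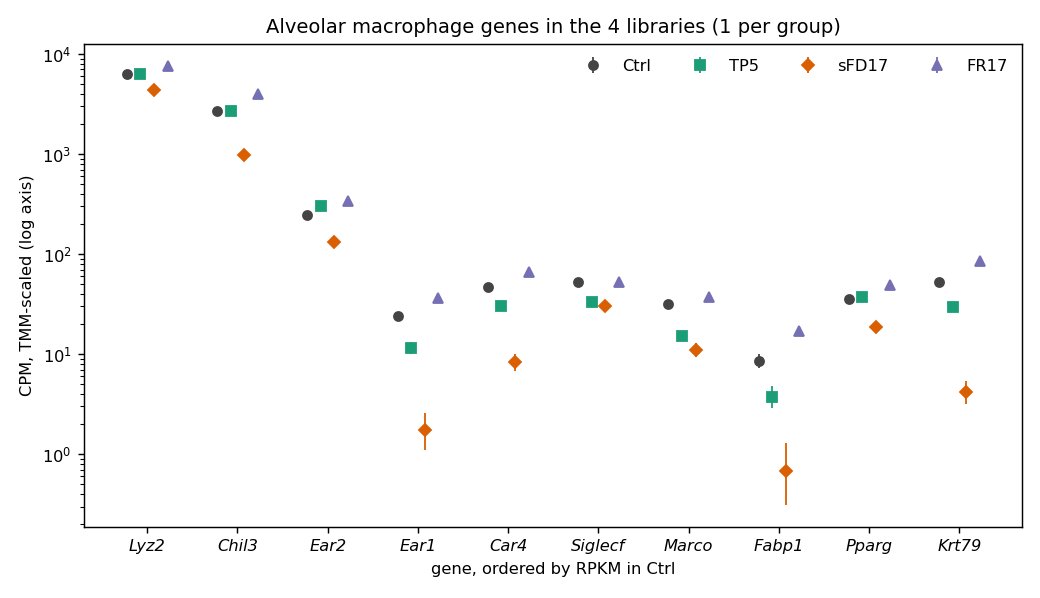
TMM-scaled CPM on a log axis for each of the 10 genes, ordered from left to right by RPKM in Ctrl. Each symbol is 1 library and each bar its 95% Poisson interval. The sFD17 symbol is the lowest of the 4 for every gene and the FR17 symbol the highest, with the widest gap for Ear1, Krt79 and Fabp1.

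The most abundant genes encode secreted proteins. Lyz2 (ENSMUSG00000069516, GRCm38 chromosome 10 from 117277331 to 117282321, minus strand, 4 exons) encodes the lysozyme of myeloid cells, which cuts bacterial cell walls. It had 105619 counts in Ctrl, 109508 in TP5, 58020 in sFD17 and 173365 in FR17. In RPKM it ranked at place 5 of all genes tested in Ctrl, 4 in TP5, 11 in sFD17 and 3 in FR17. Its ratio to Ctrl was 0.703 in sFD17 (0.696 to 0.710) and 1.21 in FR17 (1.20 to 1.22), the smallest difference among the 10 genes in sFD17. Chil3 (ENSMUSG00000040809, chromosome 3 from 106147554 to 106167564, minus strand, 11 exons) encodes Ym1, a chitinase-like lectin that can crystallise in the airspace. It had 45908 counts in Ctrl, 47257 in TP5, 90730 in FR17 and 12852 in sFD17. The sFD17 level was 2.79 times lower than Ctrl (2.74 to 2.85) and the FR17 level 1.45 times higher (1.44 to 1.47). Within a library, where no scaling enters, there were 43.5 Chil3 counts per 100 Lyz2 counts in Ctrl, 43.2 in TP5, 52.3 in FR17 and 22.2 in sFD17. Of the 100-base stretches of their transcripts, 4.93% for Chil3 and 1.97% for Lyz2 also occur in another gene, mainly Chil4 and Lyz1. Chil4 had 6 to 43 counts per library. Lyz1, the Paneth cell lysozyme, had 465 counts in Ctrl, 573 in TP5, 759 in FR17 and 195 in sFD17, and reads of the shared stretches could have been placed on either gene.

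Ear1 and Ear2 encode small secreted ribonucleases of the RNase A family. Ear1 (ENSMUSG00000072601) lies on chromosome 14 from 43818765 to 43875517 on the minus strand, and Ear2 (ENSMUSG00000072596) on the same chromosome from 44102654 to 44103534 on the plus strand, with 3 and 2 exons. Their coding sequences, read from GENCODE M21 transcripts, were identical at 95.1% of 468 aligned positions. The start of each coding sequence is shown because the counts of these genes depend on telling them apart. The 180 bases from the start codon differ at 9 positions, in capitals, and lie on GRCm38 at chr14:43819230-43819409 (minus strand) for Ear1 and chr14:44102887-44103066 (plus strand) for Ear2.
Ear1: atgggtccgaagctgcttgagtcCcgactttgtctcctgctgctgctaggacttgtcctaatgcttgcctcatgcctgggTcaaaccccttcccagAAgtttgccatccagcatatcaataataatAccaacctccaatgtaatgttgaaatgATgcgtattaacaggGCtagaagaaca
Ear2: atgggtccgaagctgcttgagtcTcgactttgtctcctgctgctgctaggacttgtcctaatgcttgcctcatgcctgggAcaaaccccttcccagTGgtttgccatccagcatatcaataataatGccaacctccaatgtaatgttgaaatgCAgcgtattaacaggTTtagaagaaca
No 100-base stretch was shared between Ear1 and Ear2 transcripts. Of the Ear1 stretches, 23.9% also occur in the pseudogene Ear-ps9 or in Ear10, and of the Ear2 stretches 13.9% in Ear10 or the pseudogene Ear-ps2. Ear-ps9 was at 0 counts in every library, and Ear10 had 0 to 5. How reads that match several genes were counted is not given in the sources used here, so the levels of Ear1 and Ear2, and the ratio between them, are uncertain to that extent.

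Ear1 and Ear2 differed in size of change although they resemble each other. Ear1 had 407 counts in Ctrl, 202 in TP5, 23 in sFD17 and 827 in FR17. Ear2 had 4183 counts in Ctrl, 5254 in TP5, 7707 in FR17 and 1743 in sFD17, and its RPKM in Ctrl was 344 against 33.0 for Ear1. The lowest library was sFD17 for both genes, but TP5 stood below Ctrl for Ear1 and above it for Ear2. In sFD17 Ear1 was 13.8 times lower than Ctrl (9.09 to 22.1) and Ear2 1.88 times lower (1.77 to 1.98). In TP5 the ratios to Ctrl were 0.478 for Ear1 (0.402 to 0.567) and 1.21 for Ear2 (1.16 to 1.26). These intervals do not overlap in either library, whereas in FR17 the ratios were 1.5 (1.33 to 1.69) and 1.36 (1.31 to 1.41). Within a library there were 9.73 Ear1 counts per 100 Ear2 counts in Ctrl (8.77 to 10.8), 3.84 in TP5 (3.32 to 4.43), 1.32 in sFD17 (0.834 to 1.99) and 10.7 in FR17 (9.98 to 11.5). This ratio does not depend on scaling, and it was lower in TP5 and sFD17 than in Ctrl beyond counting error. Of the other Ear genes, Ear6 had 7 to 27 counts per library and Ear14 none.

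The 250 bases before the start sites of Ear1 and Ear2, from RefSeq's GRCm38.p6 annotation, were 97.6% identical over 252 aligned positions. They are shown beside those of Fabp1, the gene with the largest ratio between FR17 and sFD17, so that genes with unlike sizes of change in sFD17 can be set side by side. Capitals mark GAGGAA, the core of PU.1 sites, and TTGCNNAA, a C/EBP-type element, on either strand. The windows are chr14:43819640-43819889 (minus strand) for Ear1, chr14:44102404-44102653 (plus strand) for Ear2 and chr6:71199629-71199878 (plus strand) for Fabp1. GENCODE gives Ear1 2 transcripts and a span to 43875517. The Ear1 window lies inside that span, so it is not upstream of every annotated start.
Ear1 promoter: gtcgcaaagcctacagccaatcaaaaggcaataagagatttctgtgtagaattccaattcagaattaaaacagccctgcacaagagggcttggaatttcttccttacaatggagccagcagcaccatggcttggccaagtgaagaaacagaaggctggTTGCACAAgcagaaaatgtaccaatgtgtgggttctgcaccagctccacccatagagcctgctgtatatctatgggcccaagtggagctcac
Ear2 promoter: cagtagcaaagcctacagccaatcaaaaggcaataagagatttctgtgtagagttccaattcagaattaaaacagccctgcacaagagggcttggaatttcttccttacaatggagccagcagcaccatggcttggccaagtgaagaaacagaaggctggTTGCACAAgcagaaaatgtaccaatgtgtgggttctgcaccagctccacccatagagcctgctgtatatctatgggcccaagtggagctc
Fabp1 promoter: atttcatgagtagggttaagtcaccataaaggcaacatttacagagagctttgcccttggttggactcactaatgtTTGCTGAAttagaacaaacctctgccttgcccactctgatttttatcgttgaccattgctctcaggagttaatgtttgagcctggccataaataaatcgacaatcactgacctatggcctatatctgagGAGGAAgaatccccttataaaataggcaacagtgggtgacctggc
All 10 genes have a RefSeq promoter, with 12 windows in all since Pparg has 3. In the 300-base windows, from 250 bases before to 50 after the start, GAGGAA was found in 4 of the 12 (Marco, Fabp1, Pparg and Siglecf) and in 28.3% of all 32851 promoters. TTGCNNAA was found in 4 of the 12 (Fabp1, Pparg, Ear1 and Ear2) and in 10.8% of all promoters. Ear1 and Ear2, alike over this stretch, both carry it, with the first base 92 and 90 bases before the start. In all, 8 motifs were searched on both strands, and the 2 in capitals were picked for display after the matches had been seen. Of the rest, the ETS core GGAAGT, which can overlap a PU.1 site, was in 3 of the 12 windows (Chil3, Siglecf and Lyz2) and in 23.8% of all promoters. The other 5 were in 0 of the 12. They were the DR1 PPAR element, made of a pair of AGGTCA copies 1 base apart (0.0396% of all promoters), GAGGAAGT, which contains GAGGAA (3.20%), the AP-1 element TGANTCA (7.81%), the E-box CACGTG (7.15%) and TCACGTGA, which contains that E-box (0.974%). A match is a description of letters only, and no match says only that these letters are not in the window.

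Marco, Siglecf and Car4 encode proteins of the cell surface. Marco (ENSMUSG00000026390, chromosome 1 from 120474538 to 120505024, minus strand, 17 exons) encodes a scavenger receptor for bacteria and particles. It had 533 counts in Ctrl, 268 in TP5, 145 in sFD17 and 848 in FR17. Its level was 2.07 times lower than Ctrl in TP5 (1.78 to 2.40) and 2.87 times lower in sFD17 (2.39 to 3.48), with a ratio of 1.17 in FR17 (1.05 to 1.31). Marco was below Ctrl in both TP5 and sFD17 beyond counting error, and nearer to Ctrl in FR17. Siglecf (ENSMUSG00000039013, chromosome 7 from 43351341 to 43359531, plus strand, 9 exons) encodes an inhibitory lectin for sialic acid found on alveolar macrophages and eosinophils. It had 879 counts in Ctrl, 577 in TP5, 398 in sFD17 and 1219 in FR17. After scaling, FR17 did not differ from Ctrl beyond counting error, at a ratio of 1.02 (0.935 to 1.11), nor sFD17 from TP5, at 0.917 (0.805 to 1.04). Car4 (ENSMUSG00000000805, chromosome 11 from 84957786 to 84966044, plus strand, 10 exons) encodes a membrane-anchored carbonic anhydrase, which interconverts CO2 and bicarbonate. It had 784 counts in Ctrl, 530 in TP5, 110 in sFD17 and 1522 in FR17. Its sFD17 level was 5.57 times lower than Ctrl (4.56 to 6.86), a larger difference than those of Marco and Siglecf in the same library.

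Pparg, Fabp1 and Krt79 act inside the cell. Pparg (ENSMUSG00000000440, chromosome 6 from 115360951 to 115490399, plus strand, 13 exons) encodes the nuclear receptor that sets alveolar macrophage identity. It had 594 counts in Ctrl, 648 in TP5, 246 in sFD17 and 1137 in FR17. Its TP5 level did not differ from Ctrl beyond counting error, at a ratio of 1.05 (0.938 to 1.18), while it was 1.89 times lower in sFD17 (1.62 to 2.20) and 1.41 times higher in FR17 (1.27 to 1.56). Fabp1 (ENSMUSG00000054422, chromosome 6 from 71199827 to 71205023, plus strand, 4 exons) encodes a cytosolic carrier of fatty acids best known from liver. It had 145 counts in Ctrl, 66 in TP5, 394 in FR17 and 9 in sFD17. The FR17 level was 2.00 times Ctrl (1.65 to 2.44), and the sFD17 level 12.6 times lower (6.45 to 28.1), the widest interval of the 10 because it rests on 9 counts. Krt79 (ENSMUSG00000061397, chromosome 15 from 101929332 to 101940324, minus strand, 8 exons) encodes a type II keratin whose transcript marks mouse alveolar macrophages. It had 892 counts in Ctrl, 514 in TP5, 55 in sFD17 and 1954 in FR17. It was 12.7 times lower than Ctrl in sFD17 (9.65 to 17.0) and 1.61 times higher in FR17 (1.49 to 1.75). No 100-base stretch of Marco, Siglecf, Car4, Krt79, Pparg or Fabp1 occurs in another gene, and no gene on either strand shares exon bases with them.

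Against Ctrl, 6 of the 10 genes were at least 2-fold lower in sFD17, a fold that 6.47% of all genes tested passed. The 6 were Ear1, Krt79, Fabp1, Car4, Marco and Chil3, and the median log2 fold change of the 10 was -1.5 against -0.03 for all genes. The genes fell into an order by size: the intervals of Ear1, Krt79 and Fabp1 overlapped one another, Car4 followed with an interval that overlapped only the wide one of Fabp1, then Marco with Chil3, then Pparg with Ear2 and Siglecf, and Lyz2 last. The members spread widely in sFD17, from -3.71 for Ear1 to -0.51 for Lyz2, with an interquartile range of 2.30 against 0.68 for all genes. In TP5, 3 of the 10, Ear1, Marco and Fabp1, were at least 2-fold lower, against 4.99% of all genes, with log2 fold changes of -1.06, -1.04 and -1.17. Marco missed the threshold with library size alone, at -0.99, and both Ear1 and Marco missed it when scaled to mature neutrophil markers, at -0.93 and -0.92. The median in TP5 was -0.64 against 0.00 for all genes, and 8 of the 10 were below Ctrl, Chil3 and Lyz2 by no more than counting error. In FR17 0 of the 10 were at least 2-fold higher, against 3.91% of all genes, though all 10 were above Ctrl, Siglecf by no more than counting error. The nearest to the threshold was Fabp1, with a log2 fold change of 0.99, and the median was 0.50 against 0.02. The 3 comparisons share the Ctrl library.

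**Figure D2:**
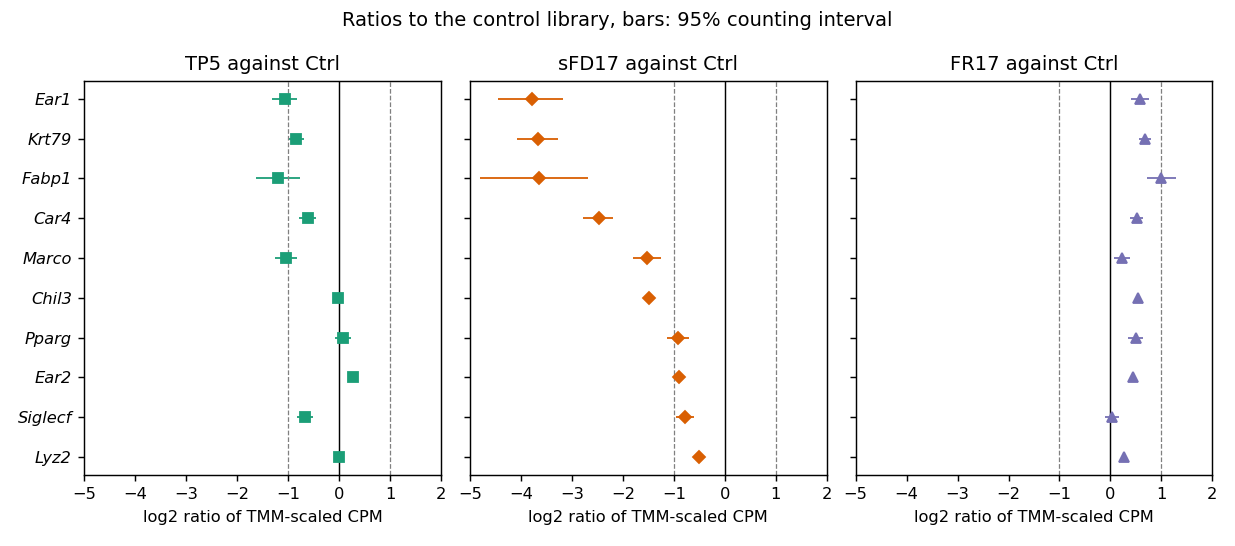
Log2 ratio of TMM-scaled CPM to the Ctrl library for each of the 10 genes, 1 panel per peptide, with bars for the 95% counting interval and dashed lines at 2-fold. In sFD17 all 10 points lie left of 0, spread from Ear1 to Lyz2, while in FR17 they lie between Siglecf at 1.02 and Fabp1 at 2.00 times Ctrl.

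The peptide libraries were also compared with each other, at the same dose and day. Between FR17 and sFD17, which differ in the sequence of the TP5 part, all 10 genes were higher in FR17 and 8 were at least 2-fold higher, against 11.3% of all genes. Only Lyz2 and Siglecf were under 2-fold, with ratios of 1.72 (1.70 to 1.73) and 1.76 (1.57 to 1.98). The largest ratios were 25.2 for Fabp1 (13.1 to 55.5), 20.7 for Ear1 (13.7 to 32.8) and 20.4 for Krt79 (15.6 to 27.2). The median log2 fold change was 1.88 against 0.07 for all genes. FR17 against TP5, the assembling peptide against the free pentapeptide, gave 5 genes at least 2-fold higher, against 7.04% of all genes. These were Fabp1, Ear1, Krt79, Marco and Car4, with ratios from 4.56 to 2.19, whereas Ear2 had 1.12 (1.08 to 1.16). For sFD17 against TP5, 6 genes were at least 2-fold lower, against 5.64% of all genes, and the median was -1.32 against -0.04. Marco and Siglecf, the pair with the smallest differences there, had log2 fold changes of -0.47 and -0.12. In all, 6 comparisons between libraries were made.

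Ratios within a library showed that the members did not keep their proportions. For every 100 Siglecf counts there were 16.5 Fabp1 counts in Ctrl (13.7 to 19.7), 11.4 in TP5 (8.73 to 14.8), 2.26 in sFD17 (1.03 to 4.34) and 32.3 in FR17 (28.8 to 36.2). Krt79 against Marco gave 167 per 100 in Ctrl (150 to 187), 192 in TP5 (165 to 223), 37.9 in sFD17 (27.3 to 52.1) and 230 in FR17 (212 to 250). Pparg against Marco had another order, with 111 per 100 in Ctrl (99.0 to 126), 242 in TP5 (209 to 280), 134 in FR17 (123 to 147) and 170 in sFD17 (138 to 210). Marco against Mrc1 ran the other way, with 6.04 per 100 in Ctrl (5.53 to 6.60), 4.58 in TP5 (4.04 to 5.18), 5.98 in FR17 (5.57 to 6.41) and 8.78 in sFD17 (7.36 to 10.4). Of 9 gene pairs computed, sFD17 was the lowest library in 7, and the pairs were chosen with the counts known.

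**Figure D3:**
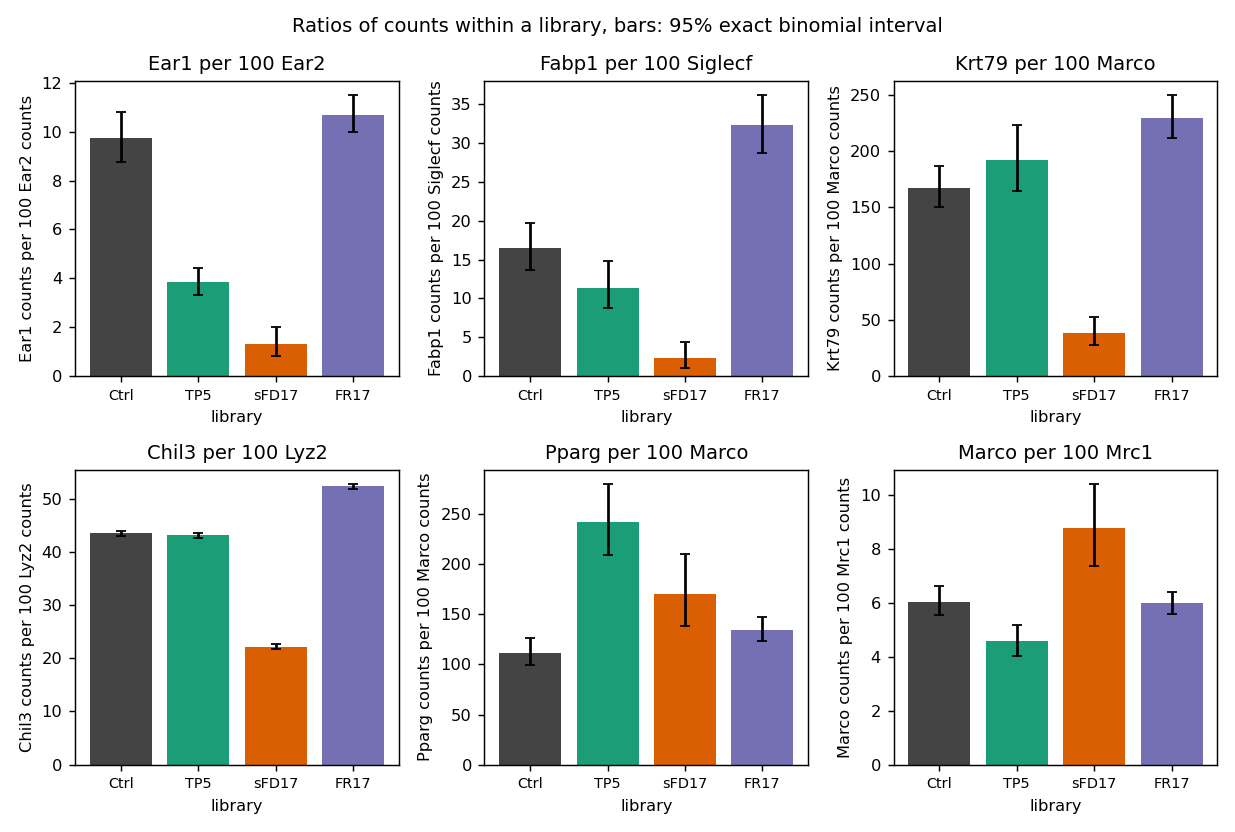
Counts of 1 gene per 100 counts of another in each library for 6 of the 9 pairs, with 95% exact binomial intervals as error bars and y axes that start at 0. The sFD17 bar is the lowest for Ear1 to Ear2, Fabp1 to Siglecf, Krt79 to Marco and Chil3 to Lyz2, but not for Pparg to Marco, and it is the highest for Marco to Mrc1, at 8.78.

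Most of the 24 tested genes of the further alveolar macrophage list stood below Ctrl in TP5 and sFD17 and above it in FR17. In sFD17, 22 of the 24 were below Ctrl and 16 at least 2-fold lower, against 6.47% of all genes. The list's median log2 fold change there was -2.06. The largest differences there were those of Atp6v0d2, a subunit of the proton pump of lysosomes, with 1216 counts in Ctrl, 816 in TP5, 2392 in FR17 and 75 in sFD17, and of Trim29, with 207 counts in Ctrl, 105 in TP5, 453 in FR17 and 13 in sFD17. Slc39a2, a zinc transporter, and Kcnn3, a potassium channel, stood at -3.39 and -3.31 on the log2 scale against Ctrl in that library. Itgax, which encodes CD11c and is also made by dendritic cells and monocytes, did not follow, with log2 fold changes of 0.20 in TP5, 0.18 in sFD17 and -0.15 in FR17. Ear6 stood above Ctrl in all 3, at 0.44, 0.13 and 1.14, but on few counts. These were 8 in Ctrl, 12 in TP5, 7 in sFD17 and 27 in FR17. Olr1 stood below Ctrl in all 3, at -0.44, -0.06 and -0.32, while Fabp5 was at -0.05 in FR17. In FR17, 21 of the 24 were above Ctrl, with a median of 0.45. Only 1 of them, Ear6, was at least 2-fold higher, against 3.91% of all genes. In TP5, 22 were below Ctrl and 3 at least 2-fold lower, against 4.99% of all genes, with a median of -0.55.

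Genes that act upstream of alveolar macrophage identity were read next. The 13 genes of alveolar macrophage development, which include the receptors for GM-CSF and TGF-β and the transcription factors C/EBPα, PU.1 and BHLHE41, had median log2 fold changes of -0.16 (TP5), -0.05 (sFD17) and -0.08 (FR17). With library size alone the sFD17 and FR17 medians were -0.26 and 0.17, and when scaled to mature neutrophil markers -0.43 and 0.35, where the medians of all genes were -0.23 and 0.26, and -0.40 and 0.45. Csf2ra and Csf2rb, the GM-CSF receptor chains, had -0.14 and -0.37 in TP5, 0.06 and 0.41 in sFD17, and -0.47 and -0.70 in FR17. Tgfbr1 and Tgfbr2 had -0.43 and -0.26 in sFD17. Bhlhe41, at 89 counts in Ctrl and 32 in sFD17, was the 1 gene of the list at least 2-fold lower there, at -1.08. The share over all genes was 6.47%. Cebpa had -0.95. Csf2, which encodes GM-CSF itself, had 24 counts in Ctrl, 11 in TP5, 62 in FR17 and 12 in sFD17. It was the 1 gene of the list at least 2-fold lower in TP5, against 4.99% of all genes. At -1.05 on so few counts, this call is uncertain. Neutrophils also make the GM-CSF receptor and C/EBPα.

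Of 15 PPARγ targets and lipid handling genes, 12 were below Ctrl in sFD17 and 3 at least 2-fold lower, against 6.47% of all genes. The list's median log2 fold change there was -0.35. The 3 were Angptl4, an inhibitor of lipoprotein lipase, at -2.44, Lpl, the lipase itself, at -1.89, and Abca1, a cholesterol exporter, at -1.02. Abca1 passed the threshold only narrowly, so its call could change with the scaling. The medians were -0.18 in TP5 and 0.17 in FR17. Scavenger and phagocytic receptors other than Marco were lower in sFD17 for 12 of 14 genes, with a median of -0.80. At least 2-fold lower were 6 of them, against 6.47% of all genes. Cd163, Mrc1, Stab1 and Colec12 led them, with log2 fold changes of -2.31, -2.06, -1.88 and -1.86. In TP5, Cd163 and Colec12 were at least 2-fold lower, at -1.04 and -1.56, against 4.99% of all genes. Cd163 stood as near the threshold as Marco, which missed it with library size alone. The medians of the list were -0.51 in TP5 and 0.18 in FR17.

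Markers of other cells were read beside these results, and their part in them was not tested. All 15 interstitial macrophage markers were detected in each library and all 15 were below Ctrl in sFD17, 13 of them at least 2-fold, with a median log2 fold change of -1.86. Their summed level was 7082 CPM in Ctrl, 4384 in TP5, 8407 in FR17 and 2516 in sFD17. The sum over the 10 genes was 9396 CPM in TP5 against 9469 in Ctrl. C1qa, a subunit of complement C1q, had 12261 counts in Ctrl, 7170 in TP5, 2843 in sFD17 and 20563 in FR17. In TP5 7 of the 15 were at least 2-fold lower, against 4.99% of all genes, led by Lyve1 at -1.64 and Folr2 at -1.63. Cd163 and Maf were close to the threshold, at -1.04 and -1.01. The median of the 15 was -0.90. The members had 3 of 10 past that fold and a median of -0.64 in the same library. In FR17 all 15 were above Ctrl and 0 at least 2-fold, against 3.91% of all genes, with a median of 0.28. With library size alone the FR17 medians of the further alveolar macrophage, interstitial, scavenger and PPARγ lists were 0.69, 0.53, 0.43 and 0.42, and the sFD17 median of the PPARγ list was -0.56.

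**Figure D4:**
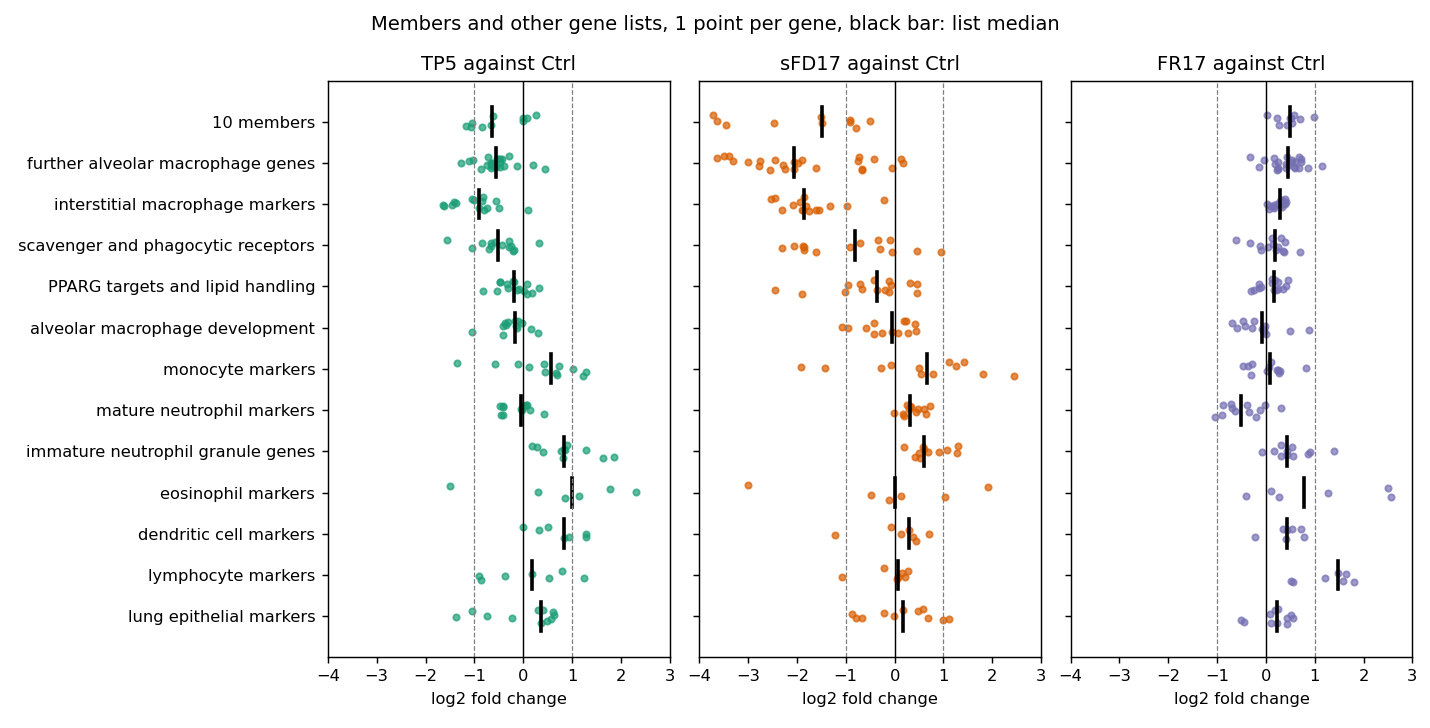
Log2 fold change against Ctrl of each tested gene in the 10 members and 12 other lists, 1 panel per peptide, with the list median as a black bar and dashed lines at 2-fold. In sFD17 the 3 top rows, alveolar and interstitial macrophage genes, have medians of -1.5, -2.06 and -1.86, and the mature neutrophil list has 0.32, or -0.06 when scaled to its own genes.

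The mature neutrophil markers were ordered otherwise. Their summed level was 34807 CPM in Ctrl, 31926 in TP5, 25789 in FR17 and 45387 in sFD17, and all 12 were detected in each library. In TP5 their median log2 fold change was -0.04, or 0.01 with library size alone. In sFD17 11 of the 12 were above Ctrl, with a median log2 fold change of 0.32 (-0.06 when scaled to these markers themselves), and in FR17 11 were below, with a median of -0.51. With library size alone these medians were 0.10 and -0.27. Csf3r, the G-CSF receptor, had -1.04 in FR17 and 0.26 in sFD17. The 11 immature neutrophil granule genes, among whose cells Chil3 is known to be made, had medians of 0.83 (TP5), 0.60 (sFD17) and 0.44 (FR17), or 0.89, 0.41 and 0.68 with library size alone, so the order of sFD17 and FR17 depends on the scaling. Their summed level was 7719 CPM in Ctrl, 12615 in TP5, 11376 in sFD17 and 9642 in FR17. Mpo, the myeloperoxidase of early granules, had 38 counts in Ctrl, 148 in TP5, 141 in FR17 and 75 in sFD17.

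The 12 monocyte markers were detected in each library, with a summed level from 4889 CPM in FR17 to 6604 in sFD17 and medians of 0.56 (TP5), 0.67 (sFD17) and 0.09 (FR17), or 0.61, 0.45 and 0.34 with library size alone. Within the list, Plac8 and Ly6c2 stood 2.45 and 1.42 above Ctrl on the log2 scale in sFD17, while F13a1 and Fn1, which macrophages also make, had -1.91 and -1.42. Of 7 eosinophil markers, 6 passed the filter, Prg3 was at 0 counts in Ctrl and TP5, and the medians were 1.01 (TP5), 0.01 (sFD17) and 0.78 (FR17). The FR17 median rests on few counts, and was 0.21 over genes with 10 or more counts in every library, 1.11 with a prior count of 0.5 and 1.33 with no filter. The summed level, 140 CPM in Ctrl, 63.0 in TP5, 24.0 in sFD17 and 115 in FR17, belongs mostly to Alox15, a lipoxygenase that macrophages also make. Epx, the eosinophil peroxidase, had 2 counts in Ctrl, 3 in TP5, 29 in FR17 and 10 in sFD17, and Prg2, the major basic protein, had 19 in Ctrl, 72 in TP5, 158 in FR17 and 32 in sFD17. In sFD17, 3 of the 6 stood above Ctrl and 3 below, with log2 fold changes of 1.91 for Epx, 1.04 for Prg2, 0.13 for Gata1, -0.12 for Ccr3, -0.48 for Il5ra and -3.01 for Alox15. The 7 dendritic cell markers had a summed level of 174 CPM in Ctrl, 304 in TP5, 229 in FR17 and 187 in sFD17 and medians of 0.83 (TP5), 0.29 (sFD17) and 0.43 (FR17). The 7 lymphocyte markers had a summed level of 55.2 CPM in Ctrl, 94.1 in TP5, 62.2 in sFD17 and 101 in FR17. Their medians were 0.19 (TP5), 0.07 (sFD17) and 1.48 (FR17), where in the last 5 of the 7 were at least 2-fold higher, against 3.91% of all genes. The 5 were Cd3e, Cd3g, Ncr1, Klrb1c and Nkg7 of T and NK cells, while Cd79a and Ms4a1 of B cells had 0.56 and 0.52. In TP5, 4 of the 7 stood above Ctrl and 3 below, from -0.90 for Ncr1 to 1.25 for Ms4a1. The 11 lung epithelial markers had a summed level of 781 CPM in Ctrl, 1149 in TP5, 1504 in sFD17 and 917 in FR17, most of it Scgb1a1 of club cells, and medians of 0.37 (TP5), 0.17 (sFD17) and 0.22 (FR17). Of these list medians in sFD17, those of epithelial, lymphocyte and eosinophil markers were below 0 with library size alone, at -0.04, -0.14 and -0.14. When scaled to mature neutrophil markers they were -0.21, -0.30 and -0.25, and that of dendritic cell markers was -0.09. With library size alone the FR17 medians of dendritic cell, lymphocyte and epithelial markers were 0.67, 1.72 and 0.45. Sftpc, the surfactant protein of alveolar type 2 cells, had 487 counts in Ctrl, 299 in TP5, 239 in sFD17 and 970 in FR17. Its log2 fold changes were -0.75 (TP5), -0.67 (sFD17) and 0.55 (FR17). The other genes of these cells in the list did not share 1 direction. Sftpb, Sftpd, Napsa and Sftpa1 stood above Ctrl in TP5 and in sFD17, at 1.00, 0.69, 0.58 and 0.48 on the log2 scale in sFD17, while Lamp3 and Slc34a2 stood below it in both, at -0.87 and -0.22 in sFD17.

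Paralogs of the 10 genes did not share their pattern as a group. Of 33 paralogs listed, 28 were in the table and 21 passed the filter, with medians of -0.04 (TP5), 0.05 (sFD17) and -0.05 (FR17). Each of these changed sign when scaled to mature neutrophil markers, to 0.06, -0.33 and 0.34 in the same order. Chil1, a chitinase-like protein of neutrophil granules, had 4626 counts in Ctrl, 4135 in TP5, 7099 in sFD17 and 4375 in FR17, against the low sFD17 level of Chil3. Ppard, the sister receptor of Pparg, had log2 fold changes of -0.46 in TP5, 0.40 in sFD17 and -0.43 in FR17. In the same order of libraries, Siglec1 (CD169) had -0.75, -0.74 and 0.19, close to those of Siglecf at -0.66, -0.78 and 0.03, while Siglece had -0.40, 0.39 and -0.60. Fabp4 and Fabp5, the fatty acid carriers of macrophages, had -0.43 and -0.72 in sFD17, against -3.45 for Fabp1. Fabp7 had -2.68 there, on 35 counts in Ctrl and 3 in sFD17. Of the 21 paralogs, 11 stood above Ctrl in sFD17 and 10 below. Fabp7 and Siglech, at -1.22, were the 2 at least 2-fold lower, against 6.47% of all genes. Several genes stand in more than 1 list, so the lists are not independent of each other. Cd163 and Stab1 are in the scavenger and the interstitial macrophage lists. Mrc1 and Olr1 are in the scavenger and the further alveolar macrophage lists, Lpl, Abcg1 and Fabp4 in the latter and the PPARγ list, and Cd36 and Scarb1 in the PPARγ and scavenger lists. Siglec1, Fabp4, Fabp5, Ear6 and Ear10 are both paralogs and further alveolar macrophage genes, and Siglech is both a paralog and a dendritic cell marker.

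The genes outside the list with the most similar profile were found by the Euclidean distance of centred log2 CPM over the 4 libraries from the mean profile of the 10 genes, among 9416 genes with a mean of at least 100 counts. The nearest was Perp, at a distance of 0.08, with 252 counts in Ctrl, 178 in TP5, 49 in sFD17 and 498 in FR17. Perp and Mrc1, though not members, stand in the further alveolar macrophage list, which was chosen with earlier results known. Cpne8 at 0.13, Mrc1 at 0.17, Ang at 0.18, P2ry14 at 0.18, Snx24 at 0.19, Lrp12 at 0.20 and Ch25h at 0.21 followed. Mrc1, the mannose receptor CD206, had 8819 counts in Ctrl, 5852 in TP5, 14180 in FR17 and 1652 in sFD17, and Ang encodes another secreted ribonuclease of the RNase A family. These genes lay nearer to the mean than any of the members, whose distances ran from 0.45 for Chil3 and Car4 to 1.52 for Fabp1. The 8 were picked as the nearest of the 9416, so their smaller distances follow from the choice and say nothing about the members.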

How the data were processed

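Pulmonary CD11b+Ly6g+ MDSC mRNA was sequenced in 4 libraries, 1 per group. The file the authors deposited holds un-normalized read counts and a length for each gene. The submitters' processing notes name HISAT2 2.0.5, StringTie 1.3.3b, featureCounts 1.5.0-p3, edgeR 3.18.1 and GRCm38.p6. Whether counting used the strand, and how reads matching several genes were treated, is not given in the sources used here. Of 54393 gene identifiers shared with GENCODE M21, 53484 had the same coordinates. Columns were matched to samples by group name, and 100 symbols on several rows were represented by the row with the most counts.

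The tools were R 4.3.3 with edgeR 4.0.16 and DESeq2 1.42.0, and Python 3.11.15, pandas 2.3.3, scipy 1.17.1, Biopython 1.88 and matplotlib 3.10.9. TMM factors were 0.986 for Ctrl, 1.02 for TP5, 0.849 for sFD17 and 1.17 for FR17. Log2 CPM used a prior count of 2, and genes needed 10 or more counts in 1 or more libraries. With 1 library per group, the differences were given with no p-value, since no variance between samples can be estimated. Intervals are exact Poisson or binomial at 95%.

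The members and lists were chosen with earlier results of these data known. Named genes were the members, their paralogs with at least 50 counts in 1 library, the 4 genes with the largest difference per list at the same minimum, the gate, defining and receptor genes, and the 8 nearest profiles. Chil4, Ear6, Ear10, Ear14, Prg3, Il5ra, Gata1, Sftpa1, Sftpd, Napsa, Lamp3, Apoe, Maf, Fabp7, Klrb1c, Cd79a, Ms4a1, Olr1 and the Ear pseudogenes fall outside this rule and were named after their values were seen. So do Abcg1, Cd36 and Scarb1, named only for standing in several lists. Alternatives were DESeq2 size factors, library size alone, other filters, a prior count of 0.5, a fold of 1.5, members without Chil3 and Lyz2, Ear1 and Ear2 summed, and scaling to mature neutrophil markers.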

Additional observations from a re-analysis of the deposited data

How the results depend on the processing

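All 10 genes were below Ctrl in sFD17 and above it in FR17 under every scaling, filter and prior count tried, apart from Fabp1 not being tested where at least 10 counts in every library were required. In TP5, Chil3 and Lyz2 turned from at or just below Ctrl to above it with library size alone and with scaling to mature neutrophil markers. The median of all genes was -0.03 in sFD17 and 0.02 in FR17, against -0.23 and 0.26 with library size alone and -0.40 and 0.45 with the neutrophil scaling. The members' median log2 fold change in sFD17 moved from -1.5 to -1.71 with library size alone, to -1.88 with the neutrophil scaling and to -1.99 without Chil3 and Lyz2. In FR17 it moved from 0.50 to 0.75 with library size alone and 0.93 with the neutrophil scaling. The number of members at least 2-fold lower in sFD17 went from 6 to 8 with library size alone (Ear2 and Pparg added) and to 9 with the neutrophil scaling (Ear2, Siglecf and Pparg added), and the number at least 2-fold higher in FR17 than in sFD17 from 8 to 10 with either. Between FR17 and sFD17 the median of all genes also moved, from 0.07 to 0.52 with library size alone and 0.86 with the neutrophil scaling. The share of all genes past each fold is not given under the alternatives, so these member counts have no background beside them. The number at least 2-fold higher than Ctrl in FR17 went from 0 to 1 with library size alone or with no filter on low counts, to 2 when called at 1.5-fold and to 3 with the neutrophil scaling. In TP5 the number at least 2-fold lower went from 3 to 6 when called at 1.5-fold, to 2 with library size alone (Marco lost) and to 1 with the neutrophil scaling (Ear1 and Marco lost). Of 660 values of single members and lists under an alternative, 467 stayed within their counting interval (lists: within 0.1), 193 moved and 0 reversed a difference past 2-fold. With DESeq2 size factors and a prior count of 0.5 the same members stood past 2-fold of Ctrl as with TMM and a prior count of 2. No paired analysis was possible because each group has 1 library and no result comes from a test. Depth limits Fabp1 most, with 9 counts in sFD17.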
